A study of Mus musculus with 88 samples.

Results

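The direct comparison of Obox3 with Dux in mouse embryonic stem cells (mESCs) rested on 4 total RNA libraries of the 88 samples, 2 from cells given an Obox3 plasmid (ES_Obox3) and 2 from cells given a Dux plasmid (ES_Dux). All 55364 annotated genes were taken, and the 20355 that reached 1 TPM (a level per gene length, scaled to a fixed total per library) in at least 2 of the 10 replicated mESC libraries were tested. The study examined transcription at genome activation in early mouse embryos and the part Obox3 plays in totipotency. Every mESC library came from male, wild-type cells of a hybrid C57BL/6 and 129 background, grown on gelatin with 15% FBS, LIF, 0.5 uM PD0325901 (a MEK inhibitor) and 3 uM CHIR99021 (a GSK3 inhibitor), and transfected with plasmid DNA by lipofection. The cells given an empty plasmid (ES_Empty, 2 libraries) supplied reference levels. The promoter of the plasmids used for RNA-seq, the share of cells that took them up and the time of harvest are not stated in the labels, and the libraries were made from whole cultures. A higher level in such a library can come from more cells or from more RNA per cell, and these cannot be told apart. In each group 1 library is replicate 1, and the other is called the unnumbered library here, because the number in its column name stands on no label. Nothing in the labels ties the libraries of a group to separate cultures, so the p-values measure the spread between these libraries, which may be technical.

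Dux and the Obox proteins are homeodomain transcription factors of the early mouse embryo. Dux binds promoters and MERVL repeats of genes that are switched on when the embryonic genome awakens, and mESCs given Dux take on part of the transcriptome of the 2-cell embryo, including the Zscan4 genes, the Tcstv genes and Zfp352. The Obox genes form a rodent family related to Crx and Otx, with members stored in the oocyte and members transcribed at genome activation.

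Levels are given as scaled TPM, the deposited TPM divided by a size factor per library (the median ratio over 13660 genes present in all 10 libraries), and differences as ES_Obox3 minus ES_Dux on the log2(scaled TPM + 1) scale, with the standard error (SE) from limma. A gene was called where the Benjamini-Hochberg adjusted p was under 0.05 and the difference at least 1. The scale matters here. The size factors were 0.489 and 0.531 in ES_Dux against 1.13 and 0.762 in ES_Obox3, and on TPM as deposited the median gene was 0.479 higher in ES_Obox3, against 0 on scaled TPM. The 10 most abundant genes took 72.1% and 70.1% of the TPM in ES_Dux and 64.3% and 73.8% in ES_Obox3, and protein-coding genes 12.8% and 12.6% against 20.4% and 14.4%. On a gene of 1 kb, 1 read was worth between 0.136 and 0.234 TPM in these 4 libraries, so 1 TPM there stood for 4.27 to 7.37 reads.

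The delivered genes were read first, as a check of the labels. Duxf3, the annotation's symbol for the Dux gene, stood at 3164 and 3724 scaled TPM in the ES_Dux libraries and at 1.28 and 1.20 in the ES_Obox3 libraries, a difference of -10.58 (SE 0.14, adjusted p = 1.64e-07). In ES_Empty it was listed at 0 and 0.251. Obox3-ps5, an annotated Obox3 copy, stood at 399 and 345 scaled TPM in ES_Obox3 and at 1.44 and 0 in ES_Dux (difference 7.90, SE 0.41, adjusted p = 1.83e-05). The Obox3 gene itself read 1.55 and 2.08 against 0.543 and 0.944, a difference of 0.69 (95% confidence interval 0.09 to 1.30, adjusted p = 0.075) that was not called. The ES_Obox3 libraries thus stood apart by the copy and not by the gene of that name, and how reads were shared among such copies in counting is not stated in the labels.

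On scaled TPM, 1773 genes were higher in ES_Obox3 (8.71% of those tested) and 1832 were higher in ES_Dux (9.0%). On TPM as deposited the counts were 4130 (20.3%) and 697 (3.42%), so that 49.2% of the calls favoured ES_Obox3 on the first scale and 85.6% on the second. Calls that held on both scales numbered 1734 higher in ES_Obox3 (8.52%) and 697 higher in ES_Dux (3.42%). The ES_Dux side held fewer of these genes but the larger differences. A called difference of at least 3 was reached by 100 genes higher in ES_Obox3 and 311 higher in ES_Dux, and one of at least 5 by 9 and 97. Genes of high level leaned to ES_Dux on scaled TPM. Among the 498 genes averaging over 100 scaled TPM, 4 were higher in ES_Obox3 and 135 in ES_Dux, with a median difference of -0.70 (0.16 on TPM as deposited). That average runs over the 10 libraries, ES_Dux among them. Genes high in ES_Dux alone, such as the Zscan4 genes and AW822073, enter this class through ES_Dux, so the count of 135 is partly set by how the class was formed.

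**Figure D1:**
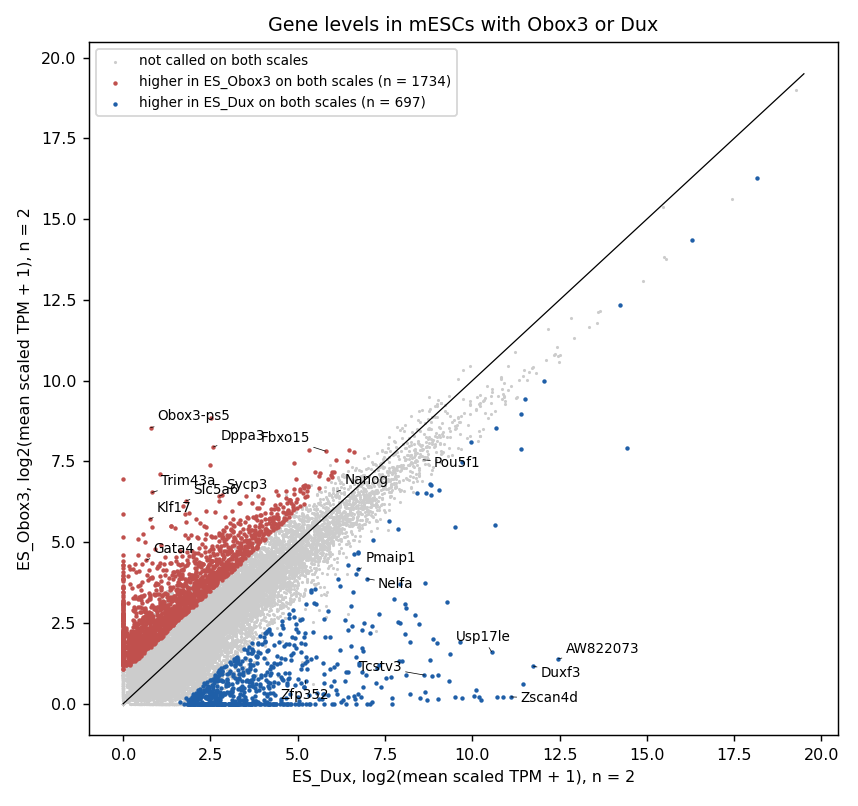
Each point is 1 of the 20355 genes tested, at log2(mean scaled TPM + 1) over 2 ES_Dux libraries (x axis) and 2 ES_Obox3 libraries (y axis); the line marks equal levels. Red points are the 1734 genes higher in ES_Obox3 and blue points the 697 genes higher in ES_Dux on both scales; the blue points reach farther from the line, to AW822073 at a difference of -11.10.

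**Figure D2:**
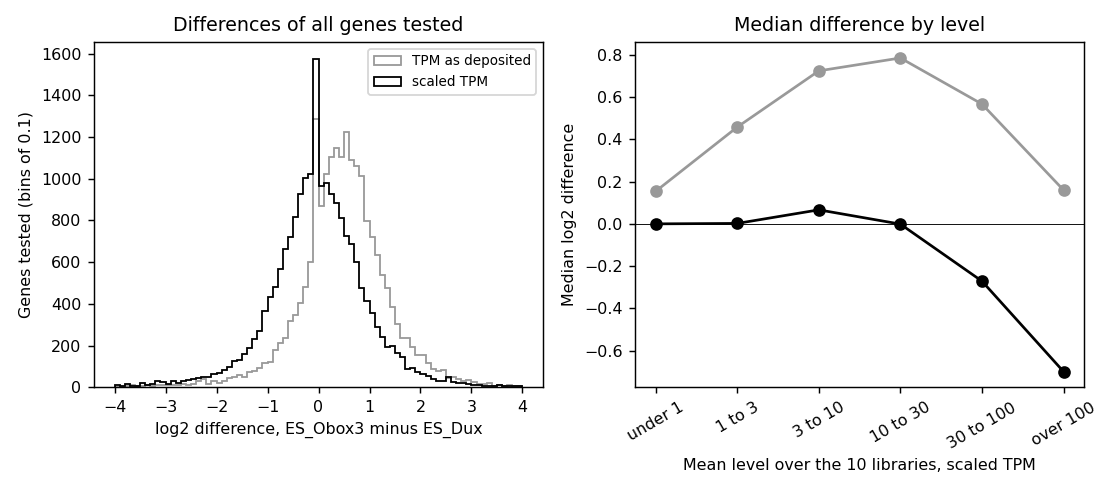
Left, the number of tested genes by log2 difference, ES_Obox3 minus ES_Dux, in bins of 0.1 between -4 and 4, on scaled TPM (black) and on TPM as deposited (grey). Right, the median difference of the genes in each range of mean level over the 10 libraries, ES_Dux among them. The grey curve lies above the black one in every range, and on scaled TPM the median falls to -0.70 for genes over 100 scaled TPM.

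The protein-coding genes made up most genes tested and most calls for ES_Obox3. Of 11596 tested, 10.2% were higher in ES_Obox3 and 6.51% in ES_Dux on scaled TPM, beside 8.71% and 9.0% of all tested genes. On both scales 1180 were higher in ES_Obox3 and 190 in ES_Dux, beside 8.52% and 3.42% of all tested genes. Pseudogenes went the other way, with 5.71% of 2366 higher in ES_Obox3 and 15.4% in ES_Dux on scaled TPM. On both scales the counts of pseudogenes were 126 and 189. Small nucleolar RNAs gave 18 and 66 calls of 387 on scaled TPM and 16 and 10 on both scales, so their lean to ES_Dux did not hold on TPM as deposited. The reference cells lay mostly on the side of the lower group. Of the 1773 genes higher in ES_Obox3, ES_Empty was nearer to ES_Dux for 1422 (80.2%), and of the 1832 higher in ES_Dux it was nearer to ES_Obox3 for 1318 (71.9%).

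The Zscan4 genes, which encode SCAN-domain zinc finger proteins of the 2-cell embryo linked to telomere upkeep, had the largest median difference of the 27 lists. All 9 tested members were higher in ES_Dux on both scales, with a median difference of -10 beside 0 for all genes. Zscan4d read 2120 and 2320 scaled TPM in ES_Dux and 0.274 and 0.0392 in ES_Obox3 (difference -10.91, SE 0.21, adjusted p = 4.15e-07). Zscan4c read 1135 and 985 against 0.182 and 0.157 (difference -9.82, SE 0.36, adjusted p = 4.91e-06). In ES_Empty Zscan4d stood at 0.0383 and 0.0331, so that it was under 1 scaled TPM with either of the other plasmids. The members are near-identical copies, and which copy gave which read is uncertain.

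The Zscan4 genes did not stand alone on their chromosome. In the RefSeq order of tested genes (GRCm38.p6, the build mm10), 37 neighbouring genes from Nlrp4b onwards, at chr7:10687793-11967256, were all called higher in ES_Dux, 35 of them also on TPM as deposited, with differences between 1.59 and 10.9 in size. Nlrp4b, an oocyte NLR gene, read 5.08 and 4.11 against 0.0924 and 0.0397 scaled TPM (difference -2.39, SE 0.22, adjusted p = 0.000224). Many of the others are pseudogenes and unnamed gene models between the Zscan4 copies. Runs of at least 4 neighbouring genes called the same way numbered 28 for ES_Dux and held 216 of its 1376 called genes with a position (15.7%), against 16 runs and 74 of 1491 genes (4.96%) for ES_Obox3. The next longest held 17 genes at chr12:87765371-88042197, 13 genes at chr10:100297999-100397063 and 13 genes with Tdpoz3 and Tdpoz4 at chr3:93796398-94237799. The longest run for ES_Obox3 held 7 genes, from Aldh1b1 to Foxe1 at chr4:45799022-46345774. Only tested genes stand in this order, and a gene can pass the filter through the 2 libraries of 1 group alone, as Nlrp4b can through ES_Dux. Neighbours that are low in every group are left out, so the length and number of runs depend in part on the filter. Neighbouring members of 1 family share sequence and are not independent observations.

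**Figure D3:**
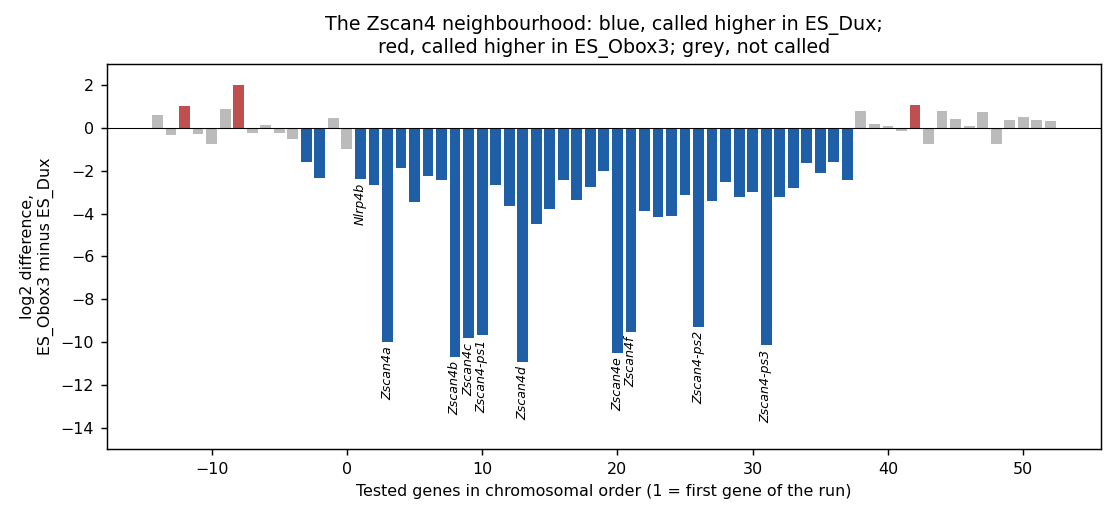
Bars give the log2 difference, ES_Obox3 minus ES_Dux, of tested genes in chromosomal order around the Zscan4 genes; 1 on the x axis is Nlrp4b, the first of 37 neighbouring genes called higher in ES_Dux (blue). The 9 named Zscan4 bars lie below -9, the other genes of the run lie closer to 0, and most genes outside the run are grey (not called).

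The Tcstv, Usp17l and Tdpoz families, also transcribed in 2-cell embryos, followed the same pattern, with 13 of 14 tested members higher in ES_Dux on both scales and a median difference of -5.30. AW822073, grouped with Tcstv3 in this list, had the largest difference of any tested gene, with 5513 and 5773 scaled TPM in ES_Dux against 2.08 and 1.15 (difference -11.10, SE 0.27, adjusted p = 8.53e-07). Tcstv3 read 374 and 415 against 1.20 and 0.496 (difference -7.77, SE 0.31, adjusted p = 6.33e-06). Usp17le, of a family of ubiquitin-specific proteases, read 1558 and 1443 against 2.30 and 1.79 (difference -8.95, SE 0.29, adjusted p = 2.79e-06). All 3 genes were at or under 0.263 scaled TPM in both ES_Empty libraries. Thus the ES_Obox3 libraries held low levels of Usp17le and AW822073 above those of ES_Empty, far below those of ES_Dux. The 1 member not called on scaled TPM, Tdpoz2 (named because it was the exception, after its values were seen), read 5.61 and 6.07 in ES_Obox3 and 6.17 and 1.81 in ES_Dux (difference 0.61, 95% confidence interval -0.29 to 1.5). Copies within these families are similar enough that the split of reads among them is uncertain.

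The other 2-cell-stage genes divided between the groups. Their counts stand beside 8.71% (ES_Obox3) and 9.0% (ES_Dux) of all tested genes on scaled TPM, and 8.52% and 3.42% on both scales. Of 35 tested, 8 were higher in ES_Obox3 and 14 in ES_Dux on scaled TPM, and 8 and 10 on both scales, with a median difference of -0.36 on scaled TPM and 0.34 on TPM as deposited. Zfp352, a zinc finger gene of the 2-cell stage, read 33.6 and 39.2 scaled TPM in ES_Dux against 0.729 and 0.548 in ES_Obox3 (difference -4.51, SE 0.18, adjusted p = 7.36e-06). Pramef25 read 644 and 663 against 1.66 and 2.10 (difference -7.83, SE 0.30, adjusted p = 5.84e-06). Pramef6 read 58.6 and 56.3 against 0.397 and 0 (difference -5.63, SE 0.20). Both belong to the PRAME family, whose copies are hard to tell apart. Nelfa, which encodes a subunit of the NELF elongation complex (chosen after its values were seen), had a difference of -3.12.

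Trim43a and Trim43b, of a family of TRIM genes transcribed before implantation, were the 2-cell-stage genes most in favour of ES_Obox3. Trim43a read 92.0 and 92.0 scaled TPM in ES_Obox3 and 0.873 and 0.665 in ES_Dux (difference 5.72, SE 0.09, adjusted p = 1.64e-07). Trim43b read 20.9 and 15.6 against 0.255 and 0 (difference 4.09, SE 0.21, adjusted p = 1.71e-05). ES_Empty lay at 0.385 or below for both, close to ES_Dux. Among the list's other genes in favour of ES_Obox3 (named after their values were seen) were Dppa2 and Dppa4, which encode partner proteins that act upstream of Dux. Dppa2 read 142 and 144 against 47.8 and 40.5 (difference 1.68, SE 0.13), and Dppa4 69.3 and 77.8 against 27.3 and 22.6 (difference 1.53, SE 0.12). Fbxo15, an F-box gene of pluripotent cells, read 214 and 235 against 57.0 and 52.1 (difference 2.02, SE 0.08). For Dppa2 and Fbxo15 both groups lay above ES_Empty, which read 27.0 and 24.0 for Dppa2 and 19.7 and 19.07 for Fbxo15.

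Some 2-cell-stage genes were high in both groups. Arg2, mitochondrial arginase, read 8.42 and 7.90 scaled TPM in ES_Obox3 and 11.0 and 10.4 in ES_Dux (difference -0.36, 95% confidence interval -0.92 to 0.21, adjusted p = 0.301) against 0.061 and 0.211 in ES_Empty. Sp110, a nuclear body gene, read 5.83 and 5.24 against 14.9 and 11.5, a difference of -1.11 (SE 0.16, adjusted p = 0.00152) that was not called on TPM as deposited (-0.32) or without ES_Dux replicate 1 (-0.96). Both groups stood far above the 0.0257 and 0.0444 of ES_Empty. Over all tested genes, 44 had at least 5 scaled TPM in all 4 libraries and under 1 in both ES_Empty libraries, and of these 4 were called higher in ES_Obox3, 18 in ES_Dux and 22 in neither, beside 8.71% and 9.0% of all tested genes called in these directions. Examples chosen after their values were seen are Chit1 and Guca1a. Chit1, a chitinase gene, read 30.3 and 31.9 against 34.8 and 32.0 and was listed at 0 in ES_Empty (difference -0.10, 95% confidence interval -0.34 to 0.14). Guca1a, which encodes a guanylate cyclase activator, read 80.3 and 88.9 against 10.4 and 10.6 (difference 2.90, SE 0.12), and ES_Empty read 0.199 and 0.0862.

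**Figure D4:**
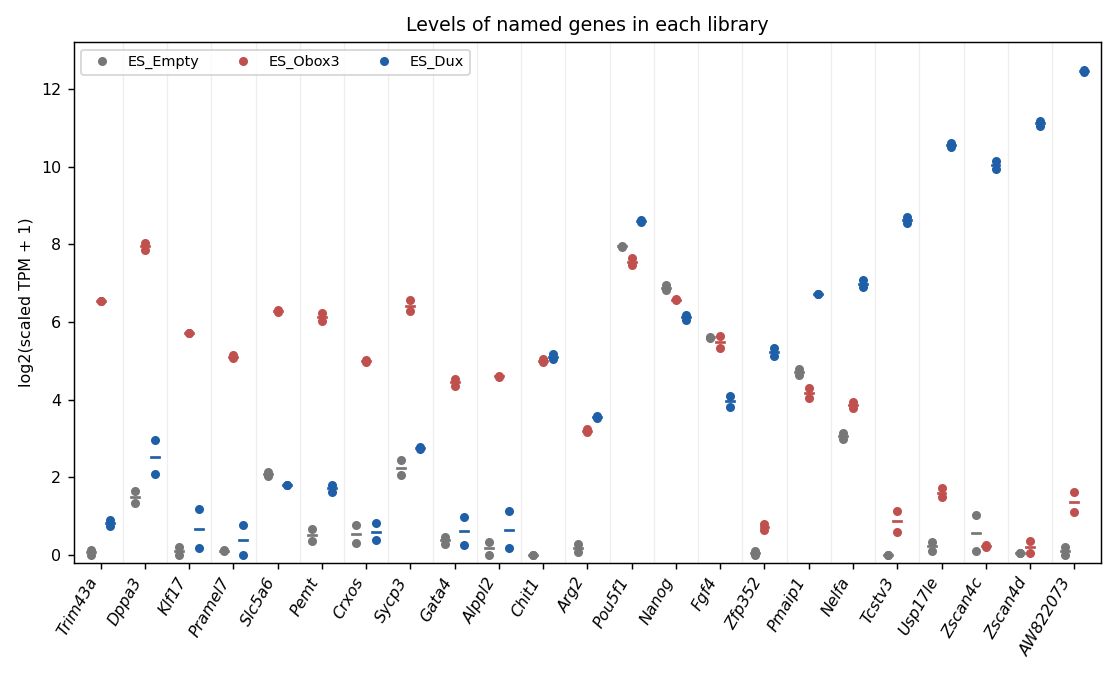
Points are single libraries at log2(scaled TPM + 1) and short bars their mean, for ES_Empty (grey), ES_Obox3 (red) and ES_Dux (blue), 2 libraries each. The 10 genes from Trim43a to Alppl2 lie highest in ES_Obox3 and the 8 from Zfp352 to AW822073 highest in ES_Dux, while Chit1 and Arg2 are high in both and near 0 in ES_Empty.

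Beside Trim43a, the genes that favoured ES_Obox3 most included Dppa3, Klf17, Pramel7, Slc5a6, Pemt, Crxos, Rab11fip1 and Gpd1l. Dppa3 (Stella), which shields the maternal genome from loss of methylation, read 231 and 261 scaled TPM in ES_Obox3 against 3.24 and 6.76 in ES_Dux (difference 5.43, SE 0.28, adjusted p = 1.78e-05). Klf17, a Kruppel-like factor of the early embryo, read 51.1 and 51.7 against 0.120 and 1.26 (difference 5.04, SE 0.36, adjusted p = 6.97e-05). Pramel7, a PRAME-family gene tied to low DNA methylation in naive cells, read 34.2 and 32.5 against 0 and 0.706 (difference 4.72, SE 0.28, adjusted p = 3.16e-05). For these 3 genes ES_Empty stood at 2.15 or below, on the side of ES_Dux, and the groups lay far apart. Crxos, a homeobox gene next to Crx, read 30.2 and 31.7 against 0.293 and 0.765 (difference 4.40, SE 0.23, adjusted p = 1.88e-05).

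Others of that set serve transport and lipid metabolism. Slc5a6, a multivitamin transporter, read 76.0 and 77.5 scaled TPM against 2.49 and 2.50 (difference 4.47, SE 0.09, adjusted p = 4.15e-07). Pemt, which makes phosphatidylcholine from phosphatidylethanolamine, read 64.4 and 74.1 against 2.06 and 2.51 (difference 4.42, SE 0.19, adjusted p = 9.25e-06). Rab11fip1, a Rab11 effector, and Gpd1l, a glycerol phosphate dehydrogenase-like enzyme, differed by 4.11 and 4.10. Pcyt2, of the phosphatidylethanolamine pathway, differed by 2.77 (SE 0.17, adjusted p = 3.31e-05). The list of cholesterol and fatty acid synthesis genes that holds Pemt and Pcyt2 had a median of 0.03. In it 6 of 32 were higher in ES_Obox3 and 1 in ES_Dux on scaled TPM (8.71% and 9.0% of all tested genes). On both scales the counts were 6 and 0 (8.52% and 3.42% of all tested genes).

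Levels in late 2-cell embryos made by sperm injection were read from a separate table of 2 libraries in TPM as deposited, which entered none of the tests. Of the 1734 genes higher in ES_Obox3 on both scales, 60% reached 5 TPM in both embryo libraries (median 10.2 TPM), and of the 697 higher in ES_Dux 38.2% did (median 2.44), beside 38.3% of all tested genes (median 2.93). With a difference of at least 3 the shares were 69.4% of 98 genes for ES_Obox3 (median 29.1) and 52.6% of 306 for ES_Dux (median 7.73). Klf17 stood at 391 and 371 TPM in the embryos and Dppa3 at 1856 and 1671. Zscan4d stood at 65.5 and 27.98 there, and AW822073 at 5.27 and 3.87, so the level in ES_Dux and the level in the embryos ranked these genes differently. The tables were normalised separately, and ES_Dux holds more pseudogenes and low-level copies among its calls, which was not separated from these shares.

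Promoters (RefSeq, GRCm38.p6; 250 bases before to 50 after each start) were read for 10143 tested genes. The letters GGATTA, the core that Crx- and Otx-type homeodomains are known to prefer, occurred on either strand in 7.38% of these genes. A gene with several starts counted as matched where any of its promoters matched. Counted by promoter and not by gene, the share was 7.06% of all 32851 promoters. GGATTA occurred in 94 of 996 genes higher in ES_Obox3 on both scales (9.44%) and in 34 of 170 higher in ES_Dux (20.0%). With a difference of at least 3 the counts were 8 of 38 (21.1%) and 23 of 61 (37.7%), and several of the latter are copies of 1 family. The longer motif known for Dux (TGATT and AATCA joined by 1 free base, searched on both strands) matched in 1 of the 10143 genes and in none of the genes called on both scales. Neither motif contains the other. The promoters of 4 genes from the extremes of the comparison follow, to show where these letters lie, 5′ to 3′, with GGATTA or its reverse complement TAATCC in capitals. Zfp352 (chr4:90218570-90218869, plus strand) and Zscan4d (chr7:11166099-11166398, minus strand) were higher in ES_Dux; Klf17 (chr4:117765617-117765916, minus strand) and Trim43a (chr9:88580641-88580940, plus strand) were higher in ES_Obox3.
Zfp352: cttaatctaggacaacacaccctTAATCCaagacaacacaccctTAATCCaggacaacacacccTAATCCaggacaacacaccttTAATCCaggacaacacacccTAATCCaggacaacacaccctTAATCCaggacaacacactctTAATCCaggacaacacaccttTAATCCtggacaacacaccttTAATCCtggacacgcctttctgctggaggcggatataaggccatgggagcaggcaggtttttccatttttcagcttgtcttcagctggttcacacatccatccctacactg
Zscan4d: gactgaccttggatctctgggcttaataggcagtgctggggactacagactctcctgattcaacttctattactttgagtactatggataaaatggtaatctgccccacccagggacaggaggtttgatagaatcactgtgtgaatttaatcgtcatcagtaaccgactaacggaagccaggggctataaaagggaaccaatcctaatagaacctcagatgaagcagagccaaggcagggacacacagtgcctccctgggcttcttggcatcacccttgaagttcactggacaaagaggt
Klf17: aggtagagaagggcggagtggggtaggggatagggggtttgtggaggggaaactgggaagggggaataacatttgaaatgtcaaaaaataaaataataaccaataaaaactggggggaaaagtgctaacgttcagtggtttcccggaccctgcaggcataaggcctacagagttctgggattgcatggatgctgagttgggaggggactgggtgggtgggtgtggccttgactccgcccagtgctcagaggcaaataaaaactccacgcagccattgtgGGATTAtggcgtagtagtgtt
Trim43a: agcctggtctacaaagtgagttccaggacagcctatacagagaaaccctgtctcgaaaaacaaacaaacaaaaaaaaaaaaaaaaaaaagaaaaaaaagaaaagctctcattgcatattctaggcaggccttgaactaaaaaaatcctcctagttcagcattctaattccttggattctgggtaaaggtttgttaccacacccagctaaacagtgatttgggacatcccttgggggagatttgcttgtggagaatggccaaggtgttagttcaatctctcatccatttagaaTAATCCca
The Zfp352 promoter held 9 matches in a tandem repeat upstream of the start, and the Zscan4d promoter held 0. The Klf17 and Trim43a promoters held 1 match each, both downstream of the start. A match is a description of the sequence and not a binding site.

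Differences of the core and naive pluripotency genes lay between -1.98 and 1.52. Their counts stand beside 8.71% (ES_Obox3) and 9.0% (ES_Dux) of all tested genes on scaled TPM. The shares were 8.52% and 3.42% on both scales, and 20.3% and 3.42% on TPM as deposited. Of 43 core and naive members, 7 were higher in ES_Obox3 and 3 in ES_Dux on both scales, beside 9 for ES_Dux on scaled TPM alone and 16 for ES_Obox3 on TPM as deposited. Pou5f1 (Oct4) read 175 and 198 scaled TPM in ES_Obox3 against 391 and 379 in ES_Dux (difference -1.04, SE 0.10, adjusted p = 0.000226), a call lost on TPM as deposited (-0.18). Nanog read 93.1 and 94.5 against 65.6 and 71.7 (difference 0.45, adjusted p = 0.00778), under the size asked for on scaled TPM and called at 1.29 on TPM as deposited. Sox2 read 12.8 and 12.9 against 18.7 and 21.8 (difference -0.61), not called on either scale, and ES_Empty read 50.9 and 48.6. Both groups thus lay below ES_Empty for Sox2. Secreted factors were among the called genes. Fgf4 read 38.9 and 48.9 against 16.1 and 13.1 (difference 1.52, SE 0.15, adjusted p = 0.000252) and Nodal 17.1 and 20.3 against 8.82 and 4.50 (difference 1.42, SE 0.28, adjusted p = 0.0072), with ES_Empty nearer to ES_Obox3 for both. Spp1 (osteopontin) read 24.9 and 23.2 against 96.7 and 98.1 (difference -1.98, SE 0.11) and Lefty2, a Nodal antagonist, 1.51 and 0.853 against 6.52 and 6.35 (difference -1.79, SE 0.14). Without the unnumbered ES_Dux library Nodal fell under the size asked for (0.99), as did Pou5f1 without ES_Obox3 replicate 1 (-0.94).

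The lineage lists held calls in both directions, with Gata4, Krt18 and Sycp3 among those in favour of ES_Obox3. Their counts stand beside 8.71% (ES_Obox3) and 9.0% (ES_Dux) of all tested genes on scaled TPM and 8.52% and 3.42% on both scales. Gata4, a transcription factor of primitive endoderm, read 22.2 and 19.3 scaled TPM in ES_Obox3 against 0.961 and 0.193 in ES_Dux (difference 3.83, SE 0.22, adjusted p = 2.97e-05), while 2 of 18 primitive endoderm genes were higher in ES_Obox3 and 2 in ES_Dux on scaled TPM, and 2 and 1 on both scales. Serpinh1, a collagen chaperone, was the 1 higher in ES_Dux on both scales, at 2.63 and 4.30 against 23.9 and 19.3 (difference -2.36, SE 0.21). Of 19 trophoblast genes, 3 were higher in ES_Obox3 and 6 in ES_Dux on scaled TPM (median difference -0.33), and 3 and 1 on both scales (median 0.06 on TPM as deposited), so that the direction with more calls depended on the scale. Krt18, a keratin, read 29.3 and 42.9 against 5.22 and 6.82 (difference 2.39, SE 0.23, adjusted p = 0.000256). Hand1 read 3.43 and 3.48 and was listed at 0 in both ES_Dux libraries. Krt8, another keratin (named after its values were seen), went the other way on scaled TPM, at 2.75 and 4.05 against 9.73 and 13.3. Its difference of -1.51 was not called on TPM as deposited (-0.73). Lgals3 was the 1 trophoblast gene higher in ES_Dux on both scales, at 0.335 and 1.82 against 7.46 and 4.05 (difference -1.75). The germ cell list gave 5 higher in ES_Obox3 and 2 in ES_Dux of 32 on scaled TPM, and 5 and 1 on both scales, with Sycp3, of the synaptonemal complex, at 76.5 and 93.4 against 5.82 and 5.66 (difference 3.67, SE 0.20, adjusted p = 1.99e-05). Tdrd1, a Tudor protein of the piRNA pathway, went the other way, at 0.0762 and 0.524 against 5.196 and 2.91 (difference -1.94, SE 0.30). The oocyte list gave 4 and 2 of 11 on scaled TPM and 4 and 1 on both scales, and Zp3 and Tle6 differed by 1.63 and 1.51. Zp3 was not called without the unnumbered ES_Obox3 library (1.47, adjusted p = 0.0797) or without ES_Dux replicate 1 (1.08, adjusted p = 0.0562).

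Marker sums for other cell types stayed small beside the mESC markers. The summed level of 10 mESC markers was 1409 and 1558 scaled TPM in ES_Obox3 and 1982 and 1954 in ES_Dux. Dppa5a gave a large part of it, at 652 and 779 against 1121 and 1110. Its difference was -0.65 on scaled TPM and 0.22 on TPM as deposited, called on neither scale. All sums here are on scaled TPM, and their direction can depend on the scale. The 12 fibroblast or feeder markers summed to 1.79 and 1.75 against 5.43 and 4.92, with 2 of them high enough to test and S100a4 at 0 in all 4 libraries. The 7 primitive endoderm markers summed to 23.9 and 21.0 against 1.64 and 2.60, and in ES_Obox3 Gata4 gave most of the sum. The 7 trophoblast markers summed to 5.51 and 5.75 against 2.57 and 3.81, and the 6 neural markers to 8.15 and 7.32 against 17.2 and 15.8. What part other cells had in any difference was not tested.

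Of 29 stress and immediate early genes, 10 were higher in ES_Obox3 and 5 in ES_Dux on scaled TPM (8.71% and 9.0% of all tested genes), with a median difference of 0.59 beside 0 for all genes. On both scales the counts were 10 and 0, where all tested genes also gave more calls for ES_Obox3 (8.52%) than for ES_Dux (3.42%). Nupr1, a stress-response regulator, read 34.6 and 33.7 scaled TPM against 3.90 and 3.00 (difference 2.99, SE 0.13, adjusted p = 1e-05). Trib3, a pseudokinase induced by ATF4 (chosen after its values were seen), read 19.03 and 19.4 against 2.04 and 1.95 (difference 2.76, SE 0.15), with ES_Empty between them at 8.03 and 7.57. Atf4 itself, Ddit3, Chac1, Ddit4 and Sesn2 (named after their values were seen) were also higher in ES_Obox3 on both scales. Atf4 read 136 and 145 against 50.9 and 47.4. The Ddit3 entries differed by 3.53, the largest difference of the list, and by 2.19. Asns, another gene known as an ATF4 target, went the other way on scaled TPM, at 43.0 and 45.5 against 108 and 106 (difference -1.25). Asns was not called on TPM as deposited (-0.40). Ier2, Hspb1, Hmox1 and Gadd45a were likewise higher in ES_Dux on scaled TPM only. The apoptosis and p53 list had 6 of 35 higher in ES_Obox3 and 2 in ES_Dux on scaled TPM, and 6 and 1 on both scales. Pmaip1 (Noxa), which promotes apoptosis, was the 1 higher in ES_Dux on both scales, at 15.3 and 18.5 against 105.1 and 104 (difference -2.57, SE 0.12, adjusted p = 1.28e-05), with ES_Empty at 23.9 and 26.6. Tigar, which restrains glycolysis, and Ei24 differed by 2.59 and 2.25 in favour of ES_Obox3.

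Among chromatin genes, Dnmt3a, a de novo DNA methyltransferase, read 17.0 and 18.4 scaled TPM in ES_Obox3 against 5.50 and 4.57 in ES_Dux (difference 1.64, SE 0.13, adjusted p = 0.000129), and 5 of 21 DNA methylation genes were higher in ES_Obox3 and 2 in ES_Dux on scaled TPM, and 5 and 0 on both scales. Uhrf1, the partner of Dnmt1, read 61.7 and 57.4 against 136 and 127 (difference -1.13), a call lost on TPM as deposited. For this list and those that follow, the shares of all tested genes were 8.71% and 9.0% on scaled TPM. On both scales they were 8.52% and 3.42%. Of 37 H3K9 methylation and polycomb genes, 7 were higher in ES_Obox3 and 1 in ES_Dux, on scaled TPM and on both scales alike, with Suz12 and Ezh1 of Polycomb repressive complex 2 at 1.38 and 1.22 and Pcgf2 at -1.98. Ezh2 (-0.13) and Eed (0.66) of the same complex were not called on scaled TPM. Of 31 imprinted genes, 1 (Nnat, 1.22) was higher in ES_Obox3 and 7 in ES_Dux on scaled TPM, and 1 and 3 on both scales, among the latter Phlda2 (-1.88) and Plagl1 (-1.84). In the FGF, ERK and WNT list 4 of 26 were higher in ES_Obox3 and 5 in ES_Dux on scaled TPM (median difference -0.07; 8.71% and 9.0% of all tested genes), and 4 and 2 on both scales (8.52% and 3.42%), with the receptors Fgfr3 and Fgfr4 at 1.84 and 1.76 and Spry4, a feedback inhibitor, at -1.83. H2-Q4, a class I MHC gene, read 13.8 and 12.8 against 0.445 and 0.798 (difference 3.14, SE 0.15, adjusted p = 1.15e-05). In that list of 22 class I MHC and interferon genes, 4 were higher in ES_Obox3 on both scales, and the 5 higher in ES_Dux on scaled TPM, Ifitm3 (-1.84) and Ifitm1 (-1.52) among them, did not hold on both scales.

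**Figure D5:**
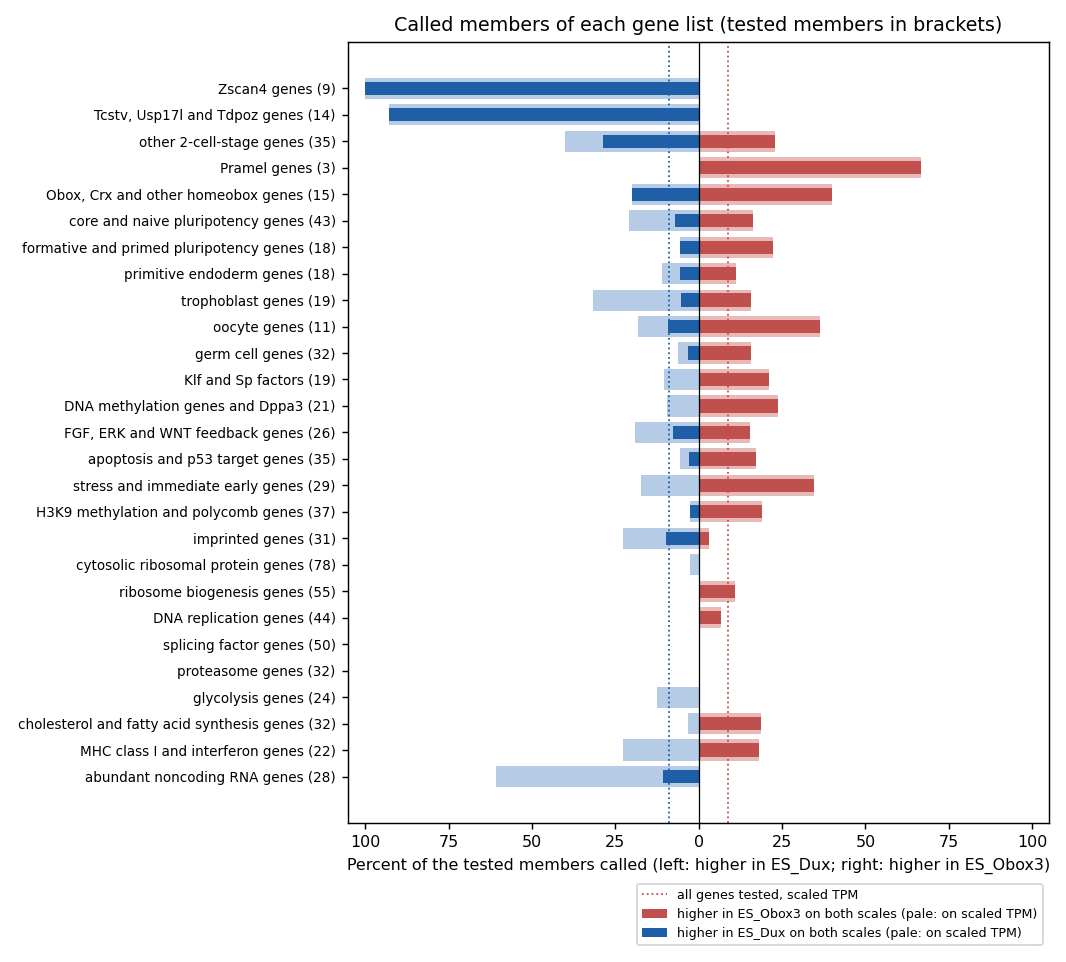
For each gene list (tested members in brackets), bars give the percent of tested members called higher in ES_Obox3 (to the right) and in ES_Dux (to the left), pale for scaled TPM and dark for both scales; dotted lines mark 8.71% and 9.0%, the shares of all genes tested that were called on scaled TPM (8.52% and 3.42% on both scales). The Zscan4 list and the Tcstv, Usp17l and Tdpoz list reach 9 of 9 and 13 of 14 on the ES_Dux side, and the splicing and proteasome lists show 0 calls.

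Lists of general cell functions depended on the scale. Among all tested genes, 8.71% were higher in ES_Obox3 and 9.0% in ES_Dux on scaled TPM. The shares were 8.52% and 3.42% on both scales, and 20.3% and 3.42% on TPM as deposited. Of 78 cytosolic ribosomal protein genes, 0 were higher in ES_Obox3 and 2 in ES_Dux on scaled TPM, Rps15a (-1.08) and Rps23 (-1.02), and 0 on both scales, while the median difference of the list turned from -0.71 to 0.15 on TPM as deposited. Without ES_Obox3 replicate 1 neither gene was called (Rps15a -0.90, Rps23 -0.92), nor was Rps23 without ES_Dux replicate 1 (-0.99). Of 55 ribosome biogenesis genes, 6 were higher in ES_Obox3 on both scales and 27 on TPM as deposited, with Wdr43 at 106 and 110 scaled TPM against 33.7 and 37.6 (difference 1.58, SE 0.10, adjusted p = 3.36e-05). Of 44 DNA replication genes, 3 were higher in ES_Obox3 on both scales and 13 on TPM as deposited. Cdc6, a licensing factor, read 33.0 and 30.04 against 5.96 and 5.55 (difference 2.27, SE 0.10, adjusted p = 1.11e-05), and Gins3 differed by 2.10. None of 50 splicing factor genes or 32 proteasome genes was called on scaled TPM, and on TPM as deposited 16 and 1 were. Glycolysis genes gave 0 and 3 of 24 on scaled TPM and 0 on both scales, with Ldhb at -1.62. Of 28 abundant noncoding RNAs, 17 were higher in ES_Dux on scaled TPM (9.0% of all tested genes) and 3 on both scales (3.42%), and Rny1, a Y RNA, read 83.3 and 89.1 against 539 and 363 (difference -2.35, SE 0.39, adjusted p = 0.0033).

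The miR-290 cluster, the main microRNA locus of mESCs, was taken up after its values were seen, because its genes formed part of a run in favour of ES_Obox3 at chr7:3218626-3249771. Mature sequences of 6 called members (RefSeq, GRCm38.p6) follow, 5′ to 3′. The seed (bases 2 to 8) is in capitals, to show which of them share a seed and so a target class.
miR-291a-3p: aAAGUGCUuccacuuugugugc
miR-294-3p: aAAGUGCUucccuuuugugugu
miR-290a-3p: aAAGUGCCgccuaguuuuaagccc
miR-291b-3p: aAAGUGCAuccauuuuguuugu
miR-293-3p: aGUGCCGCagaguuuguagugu
miR-292a-5p: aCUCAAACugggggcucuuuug
The first 2 share the seed AAGUGCU, miR-290a-3p has the seed AAGUGCC and miR-291b-3p has AAGUGCA. Among the 6 shown, miR-293-3p and miR-292a-5p have seeds of their own. For Mir292 the 5p strand is shown and the 3p strand is not, so the target class of Mir292 is not settled here. Libraries of total RNA measure reads over the hairpin gene and not the mature strand. Mir290a read 62.0 and 66.9 scaled TPM in ES_Obox3 against 17.4 and 23.5 in ES_Dux (difference 1.63, SE 0.19, adjusted p = 0.000696), about 25 and 31 reads against 5 and 5. Mir292 differed by 2.30, Mir290b by 1.56, Mir291b by 1.53, Mir293 by 1.28, Mir294 by 1.27 and Mir291a by 1.08, all called on both scales. Mir295 (0.61, adjusted p = 0.216) and Mir292b (1.25, adjusted p = 0.24) of the same cluster were not called on either scale. ES_Empty stood nearer to ES_Obox3, with a mean of 66.1 for Mir290a and 46.6 for Mir291a. The counts behind these values are small, from 1 to 8 reads per called gene in the ES_Dux libraries. These genes are neighbours in 1 cluster, so their calls are not independent observations.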

How the data were processed

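Total RNA of transfected mESCs was sequenced with a stranded SMART-seq kit, per the labels' protocols; HISAT2, Trim Galore and featureCounts 1.6.5 and the build mm10 are named in the submitters' processing notes, with nothing on how strand or multiply mapped reads were handled. The authors deposited TPM, 1 value per gene and library; no counts were used. Gene IDs were matched to names for 55104 of 55364 genes and to RefSeq for 38899. TPM were divided by median-ratio size factors and tested as log2(TPM + 1) with limma 3.58.1 (trend and robust moderation, R 4.3.3) over the 10 libraries of ES_Empty, ES_Dux, ES_Obox3, ES_Obox5 and ES_Obox6, which share 1 estimate of the spread (5 residual degrees of freedom); a fold on this scale understates the change of low genes. At an unadjusted p under 0.05, 9107 genes differed. In simulated data with normally distributed noise, the median estimates lay near the differences set. These differences were set only in genes of higher level, so recovery in low genes was not checked. Confidence intervals are at 95%. The genes, lists and tests were chosen with earlier results of these data known. Named genes were the delivered genes, the 10 largest differences in each direction among genes called on both scales (mean of at least 5 scaled TPM in the higher group; no unnamed models, small RNAs or pseudogenes), the 2 largest called members of each list in each direction (mean of at least 2) and 14 genes fixed by name; others are marked as chosen after their values were seen. 1 gene that this rule names is not reported here. Alternatives were TPM as deposited, upper-quartile scaling, pseudocounts of 0.1 and 5, other filters on low values, the 4 libraries alone, limma without trend and robust moderation, the replicate number as a block, leaving out each library, and, chosen after seeing the data, TPM summed over protein-coding genes. The 9 libraries of single constructs entered no test. Lists are described by counts and medians.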

Additional observations from a re-analysis of the deposited data

How the results depend on the processing

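On TPM as deposited 4130 genes were higher in ES_Obox3 and 697 in ES_Dux, and the median difference of all genes was 0.479. A pseudocount of 5 gave 660 and 877 genes, TPM summed over protein-coding genes (chosen after seeing the data) 2799 and 1113, and a filter at 5 TPM left 1085 higher in ES_Dux. The other planned settings, among them upper-quartile scaling (1765 and 1776) and the 4 libraries alone (1501 and 1516), kept both counts within 1.5 times. Leaving out 1 library gave 1600 to 1808 genes higher in ES_Obox3 and 1523 to 1824 higher in ES_Dux. The cause of these changes was not tested, apart from the smaller number of genes under the stricter filter. Calls made in every one of 21 settings numbered 594 for ES_Obox3 and 228 for ES_Dux. Replicate numbers did not pair the libraries: the correlation of deviations of same-numbered libraries was -0.0184 between ES_Obox3 and ES_Dux, and a fit with the replicate block gave 1734 and 1793 genes. No called gene among those named changed direction in these settings, but on TPM as deposited the median difference of 11 of the 27 gene lists turned from below to above 0. Of the 94 named genes, 19 lost their call on TPM as deposited, 13 with TPM summed over protein-coding genes and 28 at a pseudocount of 5, and Nanog was called in the first of these. Each group has 2 libraries and depth is known only through the TPM of 1 read, so differences of low genes are the least certain.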

Other observations

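Named genes were also read in the libraries of other constructs, in TPM as deposited and with no test. Zscan4d stood between 0 and 3.36 TPM in the 9 libraries of single constructs, the highest in the second Crxos construct, beside 1037 and 1232 in ES_Dux. Dppa3 stood at 71.7 TPM with the Obox4-ps27 construct and 47.4 with Obox8, and at 290.1 and 229.8 in ES_Obox5. Trim43a stood at 90.4 and 76.9 TPM in ES_Obox5 and at 74.7 and 63.6 in ES_Obox6. Klf17 stood at 37.9 and 29.7 TPM in ES_Obox5 and at 0.103 and 1.07 in ES_Obox6.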
